A study of Homo sapiens with 65 samples.

Results

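The interstitial matrix genes described here are 10 genes out of the 58735 gene IDs of the deposited count table. They comprise 6 genes for chains of fibrillar collagens (COL1A1, COL1A2, COL2A1, COL3A1, COL5A1 and COL5A2), the collagen cross-linking enzyme LOXL2, fibronectin (FN1), and the matricellular proteins SPARC and periostin (POSTN). The set was named as matrix genes with day 4.5 results in view, since COL2A1 and LOXL2 were selected on having passed the threshold at that day in both arms of the study. Levels are given as CPM, which are counts divided by the library's total and multiplied by 1000000. The libraries came from cardioids, self-organising heart-like aggregates of left-ventricular type, grown from the human induced pluripotent stem cell line WTC-11, with 8 cardioids pooled per library and 3′ ends of transcripts sequenced.

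In the genotype arm (41 libraries), wild-type cardioids (WT) were set against cardioids of clones labelled HAS2-KO (KO) at days 1.5, 2.5, 4.5 and 7.5 of differentiation. Day 1.5 had 5 WT and 6 KO libraries, days 2.5 and 4.5 had 6 of each, and day 7.5 had 3 of each. In the enzyme arm (24 libraries, 3 per group), untreated cardioids were compared with cardioids in which hyaluronidase was added early (HAse1.5, starting on day 1.5) or later (HAse2.5, starting on day 2.5). Untreated and HAse1.5 cardioids were collected at days 2.5, 4.5 and 7.5, and HAse2.5 cardioids at days 4.5 and 7.5. HAS2 encodes a hyaluronan synthase, and hyaluronidase digests the hyaluronan polymer. The 4 KO clones are labelled cl4, cl14, cl46 and cl51. Only cl4 was repeated, as cl4_R1, cl4_R2 and cl4_R3 at days 1.5, 2.5 and 4.5. At day 7.5 the KO libraries were cl4_R2, cl4_R3 and cl14_R1. Repeats of cl4 were counted as separate libraries, so p-values for KO do not measure the spread between clones alone. WT libraries carry the names TNT2, cl43_WT_UT, WT_TU or WT, and all lines share the WTC-11 background. Repeats of WT and WT_TU were also counted as separate libraries, so the p-values do not measure the spread between WT lines alone either. At day 7.5 the WT libraries were WT_R1, WT_R2 and WT_TU_R2. Library numbers fell into 3 blocks: A and B hold the first and second repeats of WT, WT_TU and cl4, and C holds all other libraries of the arm. In the enzyme arm each of the 3 libraries of a group came from another line (TNNI1, WT and TNNT2), so HAse and untreated libraries can be read within a line. Separate cultures are not stated for each library, so p-values measure the spread between these libraries, which may be partly technical.

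Fibrillar collagens are secreted as triple-helical procollagens, trimmed outside the cell and assembled into fibrils. Type I collagen is built from COL1A1 and COL1A2 chains, type II and type III are homotrimers of COL2A1 and COL3A1, and type V (COL5A1 and COL5A2) is incorporated into type I fibrils and governs their assembly. LOXL2 is a secreted lysyl oxidase that cross-links collagen, fibronectin is an early fibrillar glycoprotein to which cells attach through integrins, SPARC binds collagen, and periostin marks mesenchyme of the developing valves. In the embryonic heart, this matrix lies together with hyaluronan between the myocardium and the inner lining.

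Total counts ranged from 831062 to 3574843 per library (median 1570954). HAS2 itself was read in all 65 libraries, with group means of 165, 582, 351 and 315 CPM in KO and 197, 657, 339 and 271 CPM in WT at days 1.5, 2.5, 4.5 and 7.5 and overlapping ranges on each day. Its 3′ counts do not check an edit of its coding sequence, so the labels are followed. As a check of the labelled tissue, the cardiomyocyte marker list (7 genes) summed to 47959.8 to 60649.7 CPM in WT libraries at day 7.5, against 271 to 2721 CPM at day 2.5. Of the 8 fibroblast or mesenchyme markers, TCF21, LUM and PRRX1 were at 3 counts or fewer in every WT library at day 7.5. In bulk libraries fewer cells of a type and less RNA per cell cannot be told apart.

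COL1A1 lies on chromosome 17 (50183289 to 50201632), COL1A2 on chromosome 7 (94394561 to 94431232), COL2A1 on chromosome 12 (47972965 to 48004554) and COL5A1 on chromosome 9 (134641774 to 134844843), all on GRCh38. COL3A1 (188974320 to 189012746) and COL5A2 (189031896 to 189225312) are neighbours on chromosome 2 with 19149 bases between them and are transcribed from opposite strands. FN1 lies further along chromosome 2 (215360440 to 215436172), SPARC on chromosome 5 (151661096 to 151687165) and POSTN on chromosome 13 (37562583 to 37598844). COL1A1, COL2A1, FN1 and POSTN overlap no other annotated gene. COL1A2, COL3A1, COL5A1, COL5A2 and SPARC overlap a non-coding gene on the other strand, and COL3A1 and COL5A2 also hold microRNA genes on their own strand.

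RefSeq promoter windows on GRCh38.p14 were matched for 4 of the 10 genes (COL5A1, FN1, SPARC and POSTN). The 250 bases before the annotated start are shown for FN1 and POSTN. FN1 was the 1 gene of the 10 called higher under HAse1.5 at day 7.5 (edgeR adjusted p under 0.05). POSTN was the 1 gene of the 10 called as rising at the last step in WT. The capitals mark matches on either strand to 3 short motifs, which are the CCAAT box spelled CCAAT, the GC box spelled GGGCGG and the TATA box spelled TATAAA. FN1 is at chr2:215436069-215436318 on the minus strand, and POSTN at chr13:37598769-37599018 on the minus strand.
FN1: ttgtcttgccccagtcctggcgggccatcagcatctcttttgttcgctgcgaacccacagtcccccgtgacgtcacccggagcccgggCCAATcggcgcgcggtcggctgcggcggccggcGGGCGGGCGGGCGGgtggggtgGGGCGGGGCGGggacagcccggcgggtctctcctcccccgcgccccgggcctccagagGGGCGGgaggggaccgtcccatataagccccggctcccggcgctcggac
POSTN: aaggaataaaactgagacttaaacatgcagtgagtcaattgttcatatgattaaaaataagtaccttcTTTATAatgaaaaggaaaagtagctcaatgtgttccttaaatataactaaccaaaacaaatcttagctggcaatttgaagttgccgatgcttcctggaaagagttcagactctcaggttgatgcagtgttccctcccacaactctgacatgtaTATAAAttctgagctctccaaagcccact
The FN1 window held 1 CCAAT match, at −162 from the start, and 6 GGGCGG matches, some of which overlap one another, the nearest at −49. The POSTN window held TATAAA at −29, and the same letters on the opposite strand at −182. In windows of 300 bases, TATAAA was present in 11.5% of 35116 promoters, CCAAT in 34.6% and GGGCGG in 45% (either strand). A SOX core (ACAATG) was in 10.8% of promoters and in 0 of the 4. These are letter matches and describe no binding.

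The 10 genes reached their highest levels on different days in WT cardioids, as the plot of levels in WT and KO libraries shows. COL5A1, COL5A2, SPARC and COL1A2 were present from day 1.5, COL2A1, COL1A1 and FN1 rose from day 1.5 to day 4.5, COL3A1 appeared at day 4.5, and POSTN rose at day 7.5 from single counts. From day 1.5 to day 2.5, 4 of the 10 genes rose and 1 fell, where 30.1% of all 13797 genes tested differed (edgeR quasi-likelihood test, Benjamini-Hochberg adjusted p under 0.05, as for every call below). From day 2.5 to day 4.5, 4 rose and 2 fell (34.5% of genes), and from day 4.5 to day 7.5, 1 rose and 3 fell (2.7% of genes). TNT2 and cl43_WT_UT have no library at day 7.5, so the last step also differs in the lines present. The 3 falls (COL1A1, COL1A2 and FN1) kept their calls with the replicate name as a block. The count of rises to day 4.5 includes COL2A1, which was chosen on its day 4.5 values in these libraries, so nothing is read from that rise.

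**Figure D1:**
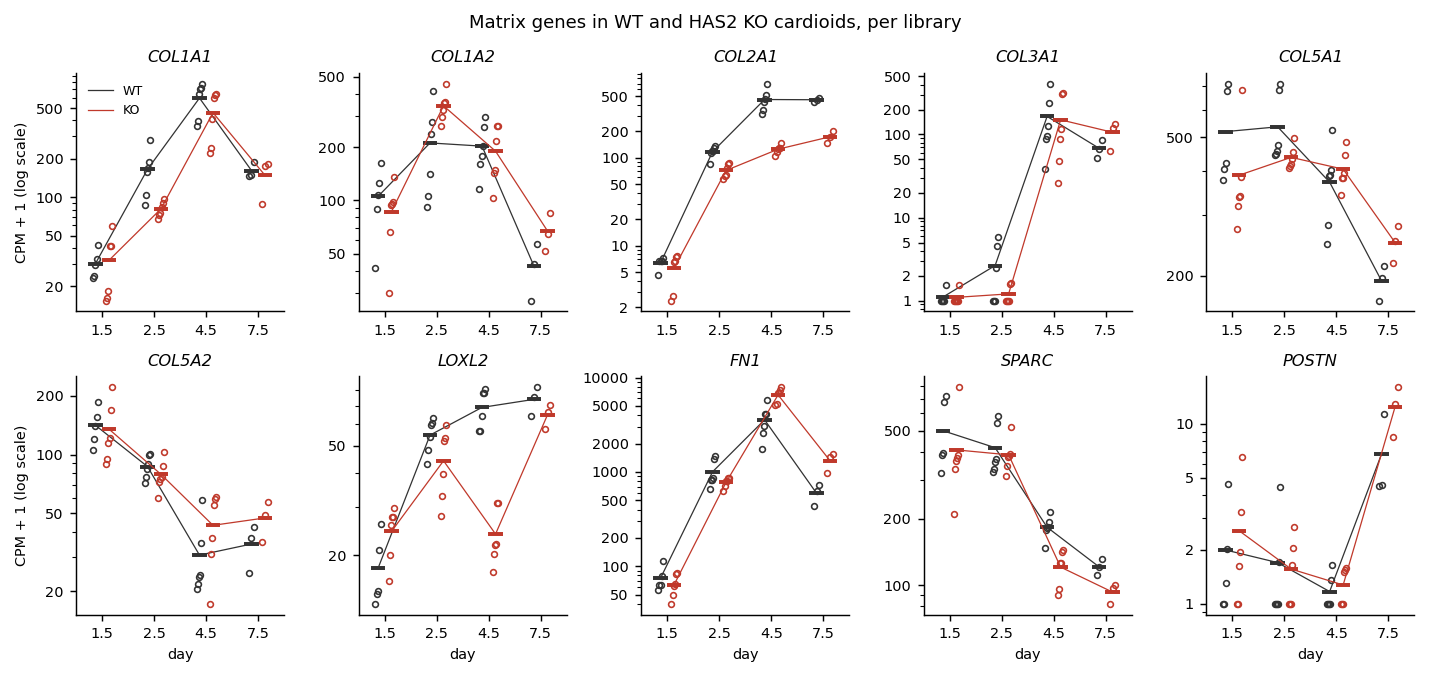
Level of each gene (CPM plus 1, log axis with a scale of its own per gene) against day, in WT (black) and KO (red) libraries. Circles are libraries and bars are group means. KO circles lie below all WT circles for COL2A1 and SPARC at days 4.5 and 7.5, and for LOXL2 at day 4.5 but not at day 7.5. POSTN is at 0 or a few counts in most libraries until day 7.5.

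COL2A1, the chain of type II collagen, had the steepest early rise. Its level in the 5 WT libraries at day 1.5 was 6.15, 5.72, 3.66, 5.64 and 5.68 CPM. At day 2.5 it was 84.9 CPM in the lowest WT library, 119 at the median and 135 in the highest. At day 4.5 the lowest, median and highest WT values were 314, 446 and 690 CPM, and at day 7.5 the 3 WT libraries had 453, 482 and 436 CPM. The first 3 days did not overlap, while day 7.5 lay inside the range of day 4.5. The log2 fold change was 4.19 ± 0.26 (SE, edgeR adjusted p 4.37e-16) for the first step and, with day 4.5 among the values on which the gene was chosen and so without a test, 2.03 for the second and 0.01 for the last.

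FN1 rose and then fell back. Its WT levels were 55.3, 62.1 and 113 CPM (lowest, median and highest of 5) at day 1.5, 662, 846 and 1466 CPM at day 2.5, and 1728, 3589 and 5797 CPM at day 4.5. At day 7.5 the 3 WT libraries had 723, 625.3 and 433 CPM, all below every WT library of day 4.5. The log2 fold changes of the 3 steps were 3.54 ± 0.28, 1.86 ± 0.24 and −2.55 ± 0.32 (SE, edgeR adjusted p 3.31e-13, 4.08e-08 and 2.14e-06). Its course over the 16 groups was closest to that of COL1A1 among the 10 genes (Pearson r 0.900 over group means of log2 CPM, given as a description).

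In WT the type I chains did not share a course. COL1A1 rose at the first 2 steps (log2 fold change 2.27 ± 0.35 and 1.89 ± 0.31, SE) and fell at the last (−1.87 ± 0.41), with edgeR adjusted p of 2.12e-06, 5.38e-06 and 0.00524. Its last fall was not past the threshold without the day 7.5 library WT_R2 (edgeR adjusted p 0.0524). COL1A2 started higher, at 40.3 to 161 CPM in WT at day 1.5, and its rise to day 2.5 did not pass the threshold (log2 fold change 0.79, edgeR adjusted p 0.0811). COL1A2 then fell to 26.2, 42.6 and 55.6 CPM at day 7.5 (log2 fold change −2.25 ± 0.45, SE, from day 4.5, edgeR adjusted p 0.0022). Over the 16 group means the r between the 2 chains was 0.430, against 0.869 between COL1A1 and COL3A1.

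COL3A1, the type III chain, was almost undetected until day 4.5. At day 1.5 no WT library held more than 1 count, and at day 2.5 the highest WT library had 4.77 CPM and the median was 0.737. At day 4.5 the lowest, median and highest WT libraries had 37.8, 109 and 404 CPM. The second step was 6.48 ± 0.65 on the log2 scale (SE, edgeR adjusted p 1.34e-10), and the first step passed the threshold with the replicate name as a block (adjusted p 0.0564 without and 0.0128 with it). At day 7.5 the 3 WT libraries had 51.3, 65.6 and 84.7 CPM, within the day 4.5 range.

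In WT, type V chains and SPARC went the other way. COL5A2 fell at the first 2 steps (log2 fold change −0.93 ± 0.26 and −1.52 ± 0.26, SE, edgeR adjusted p 0.00526 and 1.04e-05), from 140 ± 30.9 CPM (SD, n = 5) at day 1.5 to 29.6 ± 14.6 CPM (SD, n = 6) at day 4.5. COL5A1 went from 535 ± 126 CPM at day 2.5 (SD, n = 6) to 371 ± 99.3 at day 4.5 (SD, n = 6) and 192 ± 21.8 at day 7.5 (SD, n = 3). Neither of its steps passed the threshold (edgeR adjusted p 0.0705 and 0.0503), while both did with the replicate name as a block (0.00242 and 0.00208). SPARC fell from 419 ± 113 to 182 ± 22.4 CPM (SD, n = 6 each) between days 2.5 and 4.5 (log2 fold change −1.16 ± 0.23, SE, edgeR adjusted p 0.000107). Its first step (log2 fold change −0.48) passed with the block (adjusted p 0.126 without and 0.0367 with it). COL3A1 and COL5A2, though neighbours on chromosome 2, had opposite courses, with an r of −0.805 over the group means.

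LOXL2 rose at the first step, from 12.3 to 25.1 CPM in WT at day 1.5 to 42.1 to 62.0 CPM at day 2.5 (log2 fold change 1.46 ± 0.21, SE, edgeR adjusted p 1.01e-06). Later WT levels were 55.6 to 79.8 CPM at day 4.5 and 74.4, 63.5 and 80.8 CPM at day 7.5, and the steps to and from day 4.5 are given without a test because the gene was chosen there. LOXL2 lies on chromosome 8 (23297189 to 23425328, minus strand) and overlaps the coding gene ENTPD4 on the same strand, so the split of reads between them is uncertain. POSTN held at most 7 counts in any WT library at days 1.5 and 2.5 (3.62 and 3.44 CPM, both in TNT2), held at most 1 count at day 4.5 and had 3.59, 3.49 and 10.3 CPM at day 7.5, at least 3.65-fold higher when the floor is set at 3 counts per library (edgeR adjusted p 0.0131). The call of POSTN was lost without the day 7.5 library WT_TU_R2, which had 10.3 CPM (adjusted p 0.152).

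The untreated libraries of the enzyme arm gave a separate series of days. From day 2.5 to day 4.5, 6 of the 10 genes rose and 1 fell (23% of 12748 genes tested differed), and from day 4.5 to day 7.5, 4 fell (6.39%). The rises from day 2.5 to day 4.5 were log2 fold changes of 6.83 (COL3A1), 2.56 (COL1A1), 2.31 (FN1) and 1.86 (COL1A2), with edgeR adjusted p from 3.47e-05 to 0.000483. Those of COL2A1 (1.79) and LOXL2 (1.18), genes chosen on these day 4.5 libraries, are given as a description and nothing is read from them. COL5A1 had the 1 fall (−0.54, edgeR adjusted p 0.0366). Unlike in WT, COL5A2 (−0.27, edgeR adjusted p 0.571) and SPARC (−0.10, edgeR adjusted p 0.844) did not pass the threshold at this step. COL1A2, which rose here, had a log2 fold change of −0.03 at the same step in WT. The later falls were FN1 (−2.06), COL1A2 (−1.84), SPARC (−1.11) and COL5A1 (−0.90), with edgeR adjusted p from 0.0018 to 0.0216. With line as a block, COL1A1 also fell over the later step (log2 fold change −1.16, adjusted p 0.00819, against 0.061 without the block) and POSTN rose (2.51, adjusted p 0.0329, against 0.12). Among these calls, COL5A1 at the first step was lost on omitting any of 5 of the 6 libraries (edgeR adjusted p up to 0.149) and SPARC at the later step in 4 of 6 (up to 0.133).

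**Figure D2:**
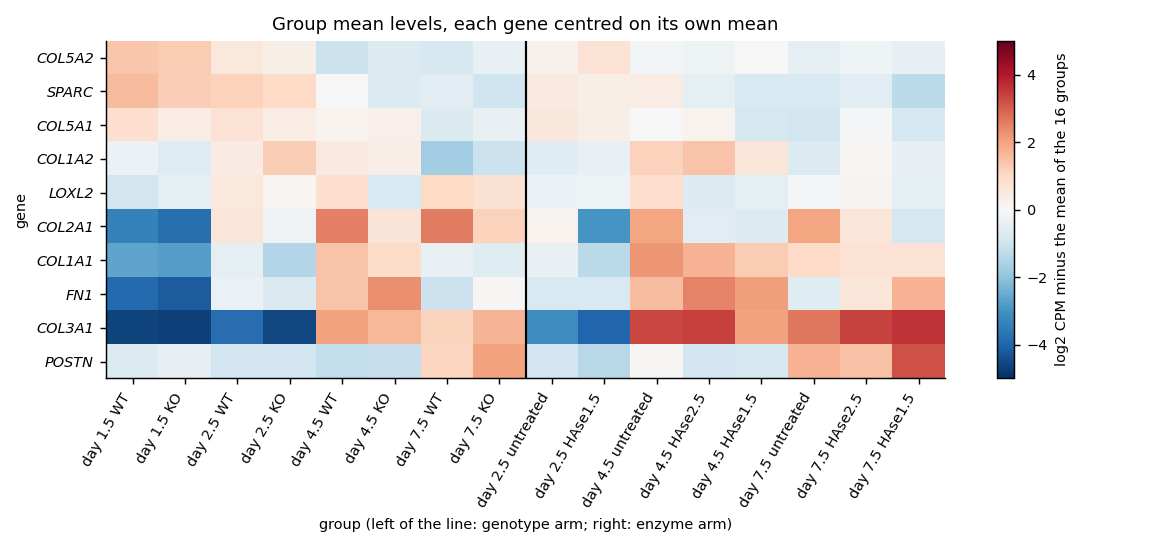
Group mean log2 CPM of the 10 genes (rows) in the 16 groups (columns), each gene centred on its own mean over the groups, with blue below and red above that mean. COL5A2, SPARC and COL5A1 are highest in WT at day 1.5, COL3A1 is blue in the groups of days 1.5 and 2.5 and red in all later ones, POSTN is red in every group of day 7.5, and the COL2A1 row is paler or bluer in each KO or HAse column from day 2.5 on than in the control column of the same day.

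The remaining matrix genes were followed in 11 lists (111 genes: procollagen folding and processing, other collagens, lysyl oxidases, proteoglycans, matricellular and elastic-fibre proteins, proteases, receptors and TGF-beta ligands). In WT, 24 of the 82 tested rose and 16 fell from day 1.5 to day 2.5, 24 rose and 21 fell from day 2.5 to day 4.5, and 1 rose and 9 fell from day 4.5 to day 7.5. All 3 tested small leucine-rich proteoglycans (BGN, FMOD and PRELP), which bind collagen fibrils, rose at the first step and fell at the second. Of the 8 tested matricellular genes, 6 rose and 1 fell from day 2.5 to day 4.5, THBS4 most (log2 fold change 5.46 ± 0.39, SE, edgeR adjusted p 1.69e-14), and THBS4 fell again by day 7.5 (−2.61 ± 0.42, adjusted p 0.000126). Of the 9 tested fibril-associated and beaded-filament collagens, 6 rose at the second step, including COL6A1, COL6A2 and COL6A3, and 2 fell. The median log2 fold change of the 82 genes was 0.11, 0.09 and −0.10 at the 3 steps, beside 0.01, 0.03 and −0.05 over all genes tested. The 1 list gene that rose at the last step was TIMP3, an inhibitor of matrix proteases (1.91 ± 0.29, SE, edgeR adjusted p 6e-05).

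The comparison of KO with WT set clones labelled as HAS2 knockouts beside wild-type lines. At day 1.5 none of the 10 genes passed the threshold, as for 0% of all genes (0 of 13797, with 591 at an unadjusted p under 0.05). Among the 10, COL5A1 (log2 fold change −0.45, lower in KO) and LOXL2 (0.45, higher in KO) had an unadjusted edgeR p under 0.05, and DESeq2 called 0.

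At day 2.5, 1 of the 10 genes, COL2A1, was lower in KO (0.993% of all genes tested differed). The 6 KO libraries had 55.7 CPM at the lowest, 68.9 at the median and 86.2 at the highest, against 84.9, 119 and 135 CPM in the 6 WT libraries. The ranges overlapped through 1 WT library, WT_R2, which lay within the KO range. The log2 fold change was −0.77 ± 0.20 (SE, edgeR adjusted p 0.0477). In each of the 3 blocks of library numbers, called A, B and C, every KO library lay below every WT library: 84.2 against 119 and 135 CPM in A, 75.1 against 84.9 and 128 in B, and 55.7 to 86.2 against 112 and 119 in C. The call is at the edge of the threshold. It was lost when any of 10 of the 12 libraries was omitted, with an adjusted p of 0.0627 to 0.119 in those, and the log2 fold change stayed between −0.85 and −0.70 in all 17 alternatives.

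COL1A1 was lower in KO at the same day by a larger fold but with more spread. KO libraries had 66.9, 78.8 and 95.9 CPM (lowest, median and highest), and WT libraries 85.2, 164 and 282 CPM. The log2 fold change of −1.09 ± 0.31 (SE) did not pass the threshold (edgeR adjusted p 0.0851) but passed with the library-number block in the fit (−1.07, edgeR adjusted p 0.0314). KO lay below WT within each of the 3 blocks. COL1A2 went the other way within each block, and its log2 fold change of 0.64 (95% interval −0.02 to 1.29) did not pass either. The intervals of the other genes with measurable levels were −0.77 to 0.08 for COL5A1, −0.70 to 0.32 for COL5A2, −0.76 to 0.03 for LOXL2, −0.88 to 0.05 for FN1 and −0.63 to 0.30 for SPARC. COL3A1 had 0 or 1 count in the 6 KO libraries and 0 to 13 in the 6 WT libraries, POSTN had 0 to 3 and 0 to 7, and no fold is given for them. In the same libraries the summed fibroblast or mesenchyme markers (8 genes, 4 of them at 3 counts or fewer in every KO library) had 260 to 462 CPM in KO and 414 to 624 CPM in WT, and the cardiac progenitor markers (7 genes, none at the floor) 359 to 689 CPM in KO and 631 to 1762 CPM in WT. The part of these differences in the collagen values was not tested.

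Of the 82 other matrix genes tested, 2 were lower and none higher in KO at day 2.5: TNC, an anti-adhesive matricellular protein (log2 fold change −1.38 ± 0.35, SE, edgeR adjusted p 0.0412), and the growth factor TGFB2 (−2.58 ± 0.63, adjusted p 0.0305). TNC was called in 7 of 17 alternatives and TGFB2 in 8 of 16. The median over the 82 genes was −0.13 and over all genes 0.01.

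Day 4.5 is the day on which the genes were chosen, so its values are a description with no test. COL2A1 had 104, 126 and 146 CPM (lowest, median and highest) in the 6 KO libraries and 314, 446 and 690 CPM in the 6 WT libraries, without overlap, a log2 fold change of −1.96. LOXL2 had 16.4, 20.9 and 30.0 CPM in KO and 55.6, 70.2 and 79.8 CPM in WT, also without overlap (−1.63). SPARC had 88.9, 125 and 143 CPM in KO and 146, 181 and 214 CPM in WT (−0.69). FN1 was higher in KO, at 5127, 6839 and 7894 CPM against 1728, 3589 and 5797 CPM in WT, with overlapping ranges (0.81). The remaining log2 fold changes were −0.47 for COL1A1, −0.17 for COL1A2, −0.21 for COL3A1, 0.04 for COL5A1 and 0.45 for COL5A2, and POSTN was at the floor in both groups. The members nearest the threshold of 0.05 in this contrast were FN1 just inside (adjusted p 0.0405) and SPARC just outside (0.0855). Of the 10 genes, 3 were past it (3.74% of all genes), a count that follows from the choice.

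Among the other matrix genes, whose lists were also drawn up with earlier results known, 2 of 82 were higher and 2 lower in KO at day 4.5. COL21A1 (log2 fold change 2.07 ± 0.48, SE, edgeR adjusted p 0.00925) and the membrane protease MMP16 (1.25 ± 0.22, adjusted p 0.000341) were higher. CCN2, a matricellular growth-factor-binding protein (−3.26 ± 0.66, adjusted p 0.00208), and TIMP3 (−1.12 ± 0.26, adjusted p 0.00859) were lower. All alternatives kept these calls except 1 of 17 for TIMP3.

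At day 7.5, COL2A1 was again the 1 gene of the 10 that passed the threshold (0.348% of all genes tested). The KO libraries had 199, 146 and 173 CPM and the WT libraries 453, 482 and 436 CPM, without overlap. The log2 fold change was −1.44 ± 0.28 (SE, edgeR adjusted p 0.00399). Without the KO library cl4_R3 or cl14_R1 the adjusted p was 0.065 or 0.0507, and the fold change stayed between −1.56 and −1.33. WT libraries of this day came from blocks A and B and KO libraries from B and C, and within B the KO library had 199 CPM against 482 and 436. Summed cardiomyocyte markers overlapped, at 50430.1 to 57603 CPM in KO and 47959.8 to 60649.7 CPM in WT. The 8 cartilage or notochord markers, a tissue in which type II collagen is abundant, summed to 68.4 to 73.7 CPM in KO and 40.0 to 69.8 CPM in WT, with MATN1, COMP, TBXT and NOTO at 3 counts or fewer in every library of both groups.

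FN1 at day 7.5 had 968, 1425 and 1545 CPM in KO and 723, 625.3 and 433 CPM in WT, without overlap, but the log2 fold change of 1.10 ± 0.33 (SE) did not pass the threshold (edgeR adjusted p 0.24). LOXL2, so far apart at day 4.5, had 65.7, 56.4 and 69.7 CPM in KO and 74.4, 63.5 and 80.8 CPM in WT at day 7.5, with overlapping ranges and a log2 fold change of −0.23 (95% interval −0.78 to 0.32). The intervals were −1.04 to 0.71 for COL1A1, −0.33 to 1.61 for COL1A2, −0.71 to 1.93 for COL3A1, −0.27 to 0.93 for COL5A1, −0.34 to 1.16 for COL5A2 and −1.09 to 0.25 for SPARC. POSTN had 15.0, 7.48 and 11.9 CPM in KO and 3.59, 3.49 and 10.3 CPM in WT, with overlapping ranges (log2 fold change 0.94, 95% interval −1.04 to 2.93). The change of the KO effect from day 2.5 to day 7.5 passed the threshold for none of the 10 genes (0.268% of all genes, edgeR, with 2 of the 10 at an unadjusted p under 0.05 and 1, FN1, called by DESeq2). It was −0.67 (95% interval −1.36 to 0.02) for COL2A1 and 1.52 (0.71 to 2.33, edgeR adjusted p 0.116, and 0.0116 with the library-number block) for FN1. Of the other matrix genes, MMP16 was higher in KO at day 7.5 (log2 fold change 1.52 ± 0.33, SE, edgeR adjusted p 0.0143), in 6 of 11 alternatives.

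The enzyme arm asked what digestion of hyaluronan did, and whether the day it began mattered. The HAse1.5 and HAse2.5 comparisons share their 3 untreated libraries at each day.

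**Figure D3:**
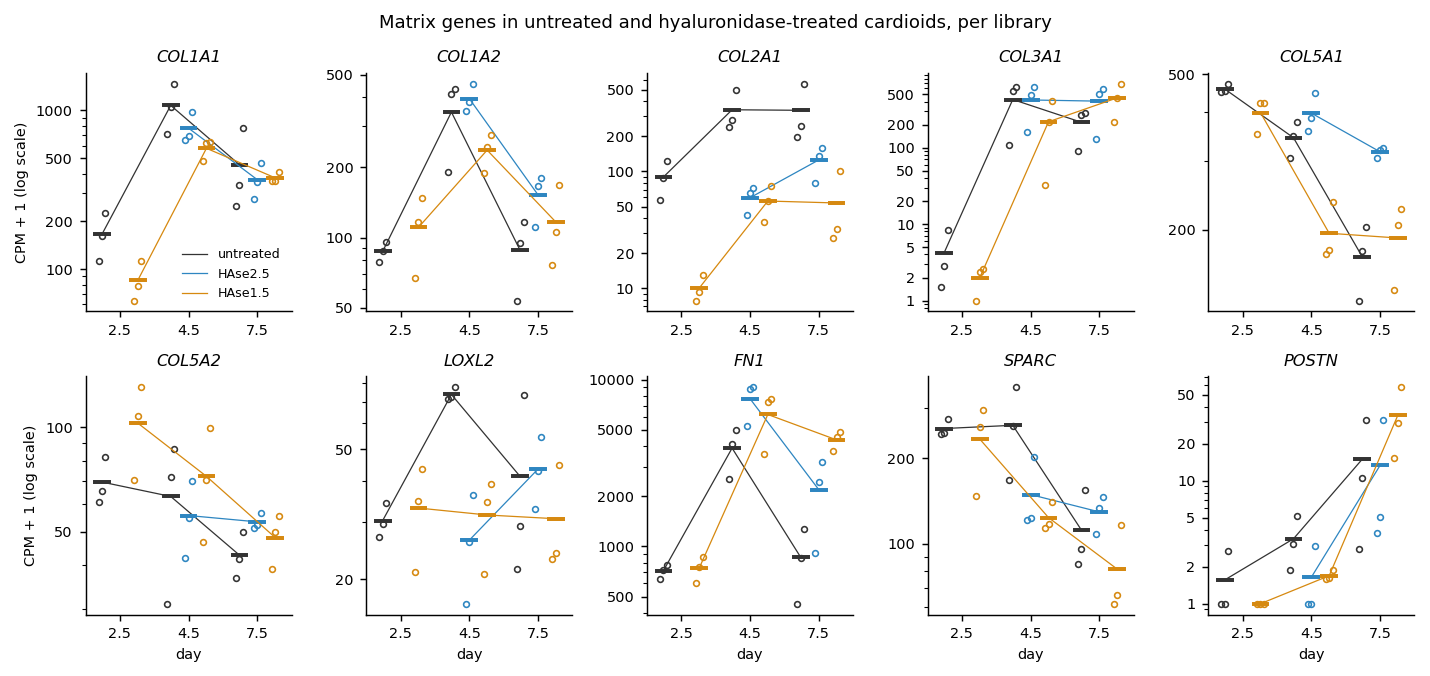
Level of each gene (CPM plus 1, log axis with a scale of its own per gene) against day in untreated (black), HAse2.5 (blue) and HAse1.5 (orange) libraries. Circles are libraries and bars are group means. The HAse circles of COL2A1 lie below all untreated circles at each day, and the HAse1.5 circles of FN1 lie above them at day 7.5.

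At day 2.5, 1 day after the enzyme was added, COL2A1 was the 1 gene of the 10 that passed the threshold (1.15% of 12748 genes tested). The untreated libraries of lines TNNI1, WT and TNNT2 had 122, 56.3 and 87.5 CPM, and the HAse1.5 libraries of the same lines 8.24, 12.0 and 6.87 CPM. The groups did not overlap, and each HAse1.5 library held only 11 to 15 counts. The log2 fold change was −3.35 ± 0.59 (SE, edgeR adjusted p 0.00359), and all 11 alternatives kept the call, with a highest adjusted p of 0.0474. The enzyme arm had no day 1.5 group. WT libraries of the genotype arm, a separate library series, had 3.66 to 6.15 CPM at day 1.5, and this difference was not tested.

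COL1A1 was lower in all 3 lines at day 2.5 (62.5, 112 and 77.4 CPM in TNNI1, WT and TNNT2 against 112, 160 and 223 CPM in untreated libraries), but its log2 fold change of −1.01 ± 0.37 (SE) did not pass the threshold (edgeR adjusted p 0.282). FN1 had 754, 602 and 859 CPM under HAse1.5 and 726, 639 and 777 CPM in untreated libraries, a log2 fold change of 0.01 with a 95% interval from −0.77 to 0.79. The intervals were −0.37 to 0.98 for COL1A2, −0.62 to 0.14 for COL5A1, −0.08 to 1.18 for COL5A2, −0.70 to 0.88 for LOXL2 and −0.73 to 0.40 for SPARC. COL3A1 had 0 to 2 counts under HAse1.5 and 1 to 13 untreated, and POSTN had 0 and 0 to 3.

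Markers of cell types moved at this day as well. The 7 cardiomyocyte markers summed to 1194 to 1443 CPM under HAse1.5 and 2508 to 3296 CPM in untreated libraries, with TNNT2, MYH6, MYH7, ACTN2 and NPPA at 3 counts or fewer in every HAse1.5 library. The 8 fibroblast or mesenchyme markers summed to 123 to 201 CPM under HAse1.5 and 323 to 575 CPM untreated. The 8 cartilage or notochord markers overlapped (45.3 to 91.1 against 32.7 to 66.2 CPM), with MATN1, COMP and NOTO at the floor in both. The part of these shifts in the lower COL2A1 level under HAse1.5 was not tested. Among 73 other matrix genes, 2 were lower and none higher: the lysyl oxidase LOXL1 (log2 fold change −1.88 ± 0.38, SE, edgeR adjusted p 0.00791, called in 8 of 11 alternatives) and THBS1 (at least 2.58-fold lower, adjusted p 0.0373, called in 5 of 10).

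At day 2.5 COL2A1 lay further below its controls under HAse1.5 than in KO. The KO effect minus the HAse1.5 effect was 2.54 ± 0.49 on the log2 scale (SE, edgeR adjusted p 0.00822), where 0.0925% of 14047 genes passed and COL2A1 was the 1 gene of the 10 to do so. The call was lost without untreated replicate 1, HAse1.5 replicate 1 or HAse1.5 replicate 3 of day 2.5 (adjusted p 0.0535, 0.084 and 0.139), and kept in the other 18 of 21 alternatives. The arms were separate library series, so each effect was taken against the controls of its own arm.

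At day 4.5, again a description because the genes were chosen there, untreated COL2A1 was 497, 237 and 273 CPM in lines TNNI1, WT and TNNT2. It was 73.9, 54.4 and 36.1 CPM under HAse1.5 and 70.4, 64.0 and 41.03 CPM under HAse2.5, so both treatments lay below every untreated library (log2 fold change −2.70 and −2.56) and overlapped each other (−0.14 between them). LOXL2 was 76.4, 71.0 and 70.2 CPM untreated, 33.5, 38.0 and 19.8 CPM under HAse1.5 and 15.8, 35.1 and 25.0 CPM under HAse2.5, so both treatments again lay below every untreated library (−1.34 and −1.56). FN1 was 2551, 5004 and 4105 CPM untreated, 3569, 7618 and 7364 CPM under HAse1.5 and 5301, 9009 and 8785 CPM under HAse2.5, higher with enzyme in each line.

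COL5A1 differed in level between the start days at day 4.5, again a description with no test. It was 377, 347 and 305 CPM untreated, 177, 235 and 173 CPM under HAse1.5 and 385, 448 and 357 CPM under HAse2.5, so HAse1.5 lay below both other groups without overlap. SPARC was 167, 259 and 354 CPM untreated, 112, 117 and 139 CPM under HAse1.5 and 121, 123 and 201 CPM under HAse2.5. For COL1A1 the values were 707, 1051 and 1463 CPM untreated, 479, 621 and 627 CPM under HAse1.5 and 653, 685 and 976 CPM under HAse2.5. They were lower with enzyme in each line, and without overlap under HAse1.5. COL1A2 overlapped untreated under both starts. Nearest to the threshold of 0.05 were LOXL2 just inside under HAse1.5 (adjusted p 0.046, with COL1A1 next outside at 0.156), and COL2A1 inside and LOXL2 outside under HAse2.5 (0.028 and 0.0843). The counts past it were 4 of the 10 genes under HAse1.5 (3.48% of all genes), 1 under HAse2.5 (0.22%) and 1 between the start days (0.361%), and nothing is read from them.

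The other 73 matrix genes at day 4.5 gave 3 higher and 4 lower under HAse1.5. SMOC1, a secreted SPARC-family protein (log2 fold change 2.16 ± 0.48, SE, edgeR adjusted p 0.0147, called in 7 of 11 alternatives), the prolyl hydroxylase P3H2 (1.57 ± 0.40, adjusted p 0.0305, 4 of 11) and the elastic-fibre protein EMILIN1 (2.36 ± 0.58, adjusted p 0.0208, 8 of 11) were higher. The collagens COL14A1 (at least 12.1-fold, 6 of 10) and COL6A3 (at least 6.54-fold, 5 of 10) and CCN2 (at least 5.24-fold, 9 of 10) were lower, with edgeR adjusted p from 0.0131 to 0.0239, and COL6A1 was the fourth. Under HAse2.5 and between the start days edgeR called 0 of the 73, with 11 and 17 at an unadjusted p under 0.05 and 2 and 2 called by DESeq2.

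At day 7.5, 2 of the 10 genes passed the threshold under HAse1.5, COL2A1 lower and FN1 higher (3.33% of all genes). COL2A1 was 243, 557 and 196 CPM in the untreated libraries of TNNI1, WT and TNNT2, and 26.1, 101 and 31.4 CPM under HAse1.5, lower in all 3 lines and without overlap. The log2 fold change was −2.76 ± 0.49 (SE, edgeR adjusted p 0.00323), and all 11 alternatives kept the call (highest adjusted p 0.0323). FN1 was 452, 1272 and 850 CPM untreated and 4832, 4501 and 3732 CPM under HAse1.5, higher in all 3 lines and without overlap. Its log2 fold change was 2.23 ± 0.39 (SE, edgeR adjusted p 0.00209), kept in all 11 alternatives (highest adjusted p 0.0194).

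In untreated cardioids FN1 fell from day 4.5 to day 7.5. Under HAse1.5 it went from 3569 to 4832 CPM in TNNI1, from 7618 to 4501 in WT and from 7364 to 3732 in TNNT2, so it was higher at day 7.5 in 1 line and lower in the other two, and this step was not tested. The HAse1.5 effect on FN1 at day 7.5 exceeded that at day 2.5 by 2.22 ± 0.53 on the log2 scale (SE, edgeR adjusted p 0.0441, with 1.13% of genes passing, and FN1 the 1 gene of the 10). That call was lost in 11 of the 12 fits that left out 1 library (adjusted p 0.0645 to 0.109), and its estimate stayed between 1.92 and 2.60. For COL2A1 the same difference was 0.59 (95% interval −0.98 to 2.16).

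With the enzyme from day 2.5, COL2A1 at day 7.5 was 136, 158 and 79.2 CPM, below every untreated library, and the log2 fold change of −1.47 ± 0.46 (SE) did not pass the threshold (edgeR adjusted p 0.176). FN1 was 913, 3229 and 2440 CPM, higher than untreated in all 3 lines (1.28 ± 0.38, SE), which passed with line as a block (edgeR adjusted p 0.139 without and 0.0399 with it). COL5A1 was the 1 gene of the 10 that passed (0.659% of all genes): it was 318, 323 and 305 CPM under HAse2.5 and 203, 131 and 176 CPM untreated, higher by 0.84 ± 0.19 on the log2 scale (SE, edgeR adjusted p 0.0386). Its call was lost in each of the 6 fits that left out 1 library (adjusted p 0.0516 to 0.131).

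Set directly against each other at day 7.5, HAse1.5 and HAse2.5 gave 0 of the 10 genes past the threshold in edgeR (0.00784% of all genes, 1 gene), with 4 of the 10 at an unadjusted p under 0.05 and 1 called by DESeq2. COL2A1 was lower under the early start by 1.29 on the log2 scale (95% interval of the difference −2.30 to −0.28, adjusted p 0.703), and COL5A1 had no overlap between the groups (139, 225 and 204 against 318, 323 and 305 CPM; difference −0.79, adjusted p 0.207). FN1 differed by 0.95 (0.17 to 1.73, adjusted p 0.749).

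**Figure D4:**
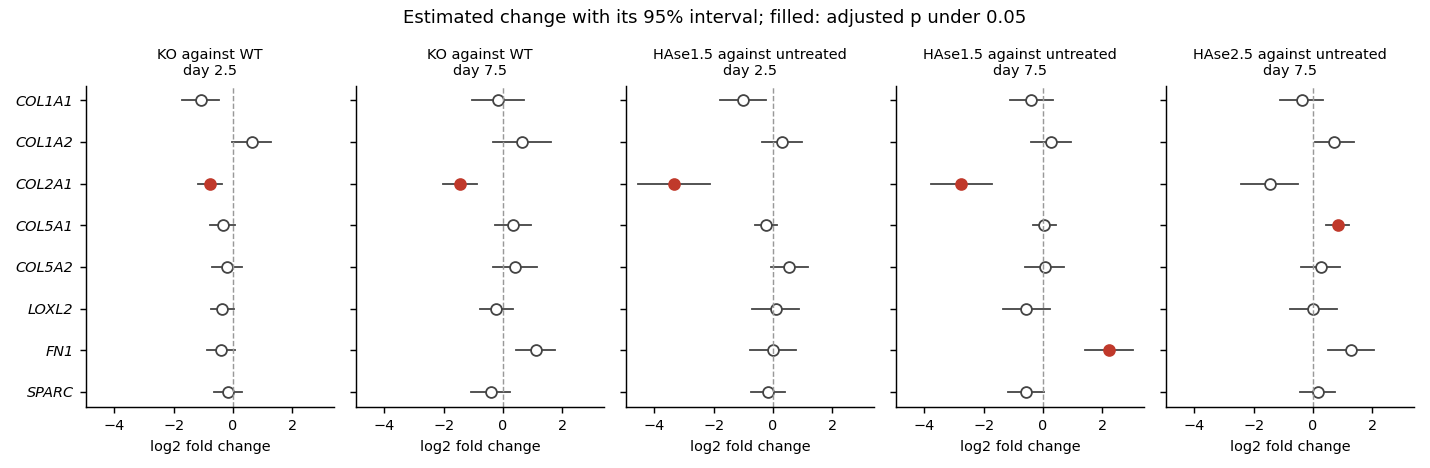
Log2 fold change (horizontal axis) with its 95% interval for 8 of the genes in 5 tested comparisons, with filled points where the adjusted p was under 0.05. COL3A1 and POSTN are left out because they were near the floor at day 2.5. COL2A1 lies left of 0 in all 5 panels, between −3.35 and −0.77, and FN1 lies right of 0 in the 3 panels of day 7.5.

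For the remaining genes at day 7.5 the intervals against untreated libraries spanned 0 under HAse1.5: −1.13 to 0.32 for COL1A1, −0.40 to 0.95 for COL1A2, −0.74 to 2.63 for COL3A1, −0.34 to 0.44 for COL5A1, −0.61 to 0.72 for COL5A2, −1.36 to 0.22 for LOXL2, −1.17 to 0.02 for SPARC and −0.63 to 2.85 for POSTN. Under HAse2.5 the intervals were −1.11 to 0.34 for COL1A1, −0.85 to 2.52 for COL3A1, −0.40 to 0.92 for COL5A2, −0.79 to 0.79 for LOXL2, −0.43 to 0.74 for SPARC and −2.06 to 1.51 for POSTN. COL1A2 was above untreated in all 3 lines under HAse2.5, at 110, 165 and 179 CPM against 52.6, 93.8 and 115 CPM, and its log2 fold change of 0.72 (95% interval 0.05 to 1.39) did not pass the threshold (edgeR adjusted p 0.34). POSTN differed widely among lines TNNI1, WT and TNNT2, at 1.78, 9.57 and 30.4 CPM untreated, 28.5, 14.4 and 56.5 CPM under HAse1.5 and 2.77, 4.03 and 30.1 CPM under HAse2.5. Its HAse1.5 value was above the untreated one in each line. COL3A1 was above untreated in all 3 lines under both starts, though its intervals spanned 0. It had 214, 677 and 448 CPM under HAse1.5, 130, 499 and 584 CPM under HAse2.5 and 90.1, 285 and 266 CPM untreated. Untreated LOXL2 was uneven between lines at this day, with 20.5, 72.1 and 28.2 CPM. The HAse1.5 libraries had lower cardiomyocyte marker sums than untreated ones (27819 to 30123 against 56771 to 65744 CPM) and higher pluripotent-cell sums (4 genes, 16.3 to 30.7 against 12.1 to 12.6 CPM, with NANOG and ZFP42 at the floor in both). The fibroblast or mesenchyme sums overlapped (179 to 293 against 105 to 211 CPM), and the part of these markers in the FN1 and COL2A1 values was not tested.

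Of the 73 other matrix genes, 6 were higher and none lower under HAse1.5 at day 7.5. They were led by the collagen-binding integrin ITGA2 (at least 9.15-fold, edgeR adjusted p 0.00648), SMOC1 (log2 fold change 3.14 ± 0.52, SE, adjusted p 0.00209) and THBS1 (2.03 ± 0.50, adjusted p 0.0251, called in 7 of 11 alternatives). Under HAse2.5, 3 were higher: SMOC1 (2.95 ± 0.52, adjusted p 0.0153, 7 of 11), P3H2 (2.02 ± 0.43, adjusted p 0.0358, 5 of 11) and the procollagen chaperone SERPINH1 (1.23 ± 0.27, adjusted p 0.0348, 5 of 11). The medians of the list genes were 0.14 and 0.05, beside 0.02 and −0.01 over all genes. The KO effect minus the HAse1.5 effect at day 7.5 passed for none of the 10 genes in edgeR (0.0925% of all genes, with 2 of the 10 at an unadjusted p under 0.05 and 0 called by DESeq2). It was 1.33 for COL2A1 (95% interval 0.31 to 2.34) and −1.12 for FN1 (−2.13 to −0.10).

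Ordered by mean level, the 16 groups placed COL2A1 highest in WT at days 4.5 and 7.5 (460 ± 134 CPM, SD, n = 6, and 457 ± 23.5 CPM, SD, n = 3), which overlapped, then in the untreated groups of the same days (335 ± 141 and 332 ± 196 CPM, SD, n = 3 each). All KO and HAse groups of days 4.5 and 7.5 followed below these, at a mean of 173 CPM or less. For day 4.5 this order follows from the choice of COL2A1, so nothing is read from it. FN1 was highest in HAse2.5 at day 4.5 (7698 ± 2079 CPM, SD, n = 3) and KO at day 4.5 (6551 ± 1118 CPM, SD, n = 6), and neighbouring groups in that order overlapped. The genes whose group means followed these most closely among 12565 compared over the 16 groups were MPC2 (r 0.925), RBM20 (0.923) and EFNA1 (0.922) for COL2A1, and THBS3 (0.949), TTC28 (0.949) and PAQR8 (0.945) for FN1. COL3A1 was closest to KCNIP4 (0.984), SPARC to CENPW (0.967), COL5A2 to TMED2 (0.951), COL1A1 to AMOT (0.944), COL5A1 to ATP1B3 (0.920), POSTN to SORCS3 (0.911), LOXL2 to GATB (0.864) and COL1A2 to STOM (0.842). These r values describe group means that share libraries and days, and no test is attached to them.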

How the data were processed

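3′ end RNA sequencing counts were analysed from 65 libraries of 16 groups. The authors' deposited table holds whole-number counts per gene, made with featureCounts of Subread 1.6.2 on hg38 (GRCh38), per the submitters' processing notes. The aligner, the strand setting and any use of molecular identifiers are not given in the sources used here, so PCR copies may be counted and overlapping genes may share reads. A total of 4 columns belonging to no listed sample were not used. Gene symbols were matched through GENCODE 29 (58207 of 58735 IDs with a symbol).

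The 10 genes, the 11 matrix lists (111 genes, 110 matched) and the 8 marker lists (50 genes) were chosen with earlier results of these data known. The text names all 10 genes, up to 3 list genes with the highest and 3 with the lowest log2 fold change among those called in a comparison, and the genes most alike each of the 10 by Pearson r over group means. Some counts of few list genes are also spelled out by name, after their values were seen.

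CPM are counts divided by the library total, times 1000000. Each arm was fitted across all its libraries with edgeR 4.0.16 (R 4.3.3, limma 3.58.1): filterByExpr with a minimum count of 10, TMM scaling and the quasi-likelihood test, Benjamini-Hochberg adjusted over all genes tested, threshold 0.05. Differences between arms came from 1 fit of all libraries. Alternatives were DESeq2 1.42.0, other scaling, no filter, only the groups compared, a replicate block and leaving out each library. The procedure was run on simulated counts for KO against WT at day 2.5 only, with the same spread set for every gene. That setting does not cover the smaller groups or differences between lines, clones and blocks. A group whose libraries all hold at most 3 counts of a gene is called at the floor, and folds against it are lower bounds that cover counting error only. Day 4.5 contrasts of the 10 genes, and the steps of COL2A1 and LOXL2 to and from that day, are given without a test because the genes were chosen there. Figures used matplotlib 3.10.9.

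Same-line libraries of the enzyme arm come from 1 cell line, which pairs them (of 21 pairs, 15 had deviations correlated above 0.1, lowest −0.108). WT libraries of the same name on different days were correlated above 0.1 in 24 of 24 pairs (lowest 0.131). WT and KO libraries share only a block of library numbers.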

Additional observations from a re-analysis of the deposited data

Results flagged for a closer look

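Among 60 checks of a gene in a group of 4 to 10 libraries, 7 had 1 library far from the rest of its group (Dixon's test). The nominal rate of this test is about 1 in 20, but that rate does not hold where most libraries have few or no counts. This was so for COL3A1 and POSTN in the groups named below, so 7 of 60 is not read as an excess. In WT at day 1.5, COL2A1 was lowest in WT_R2 (3.66 CPM), POSTN was highest in TNT2 (3.62 CPM), and COL3A1 had its only count in WT_R2 (0.522 CPM). In WT at day 2.5, TNT2 again had the highest POSTN (3.44 CPM). In KO at day 1.5, cl4_R1 was highest for COL5A1 (683 CPM) and SPARC (788 CPM), and COL3A1 had its only count in cl4_R2 (0.554 CPM). The library cl4_R1 was the only KO library of block A at that day. Both WT libraries of block A were high as well, at 710 and 679 CPM for COL5A1 and 719 and 674 CPM for SPARC. The other WT libraries of day 1.5 had 376 to 421 CPM for COL5A1 and 321 to 396 CPM for SPARC.

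A tested difference between effects passed the threshold for FN1, whose HAse1.5 effect was larger at day 7.5 than at day 2.5 by 2.22 on the log2 scale (edgeR adjusted p 0.0441). It also passed for COL2A1 at day 2.5, where the KO effect minus the HAse1.5 effect was 2.54 (edgeR adjusted p 0.00822).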

How the results depend on the processing

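For the 34 called values of the 10 genes, steps into day 4.5 included, 412 alternative values stayed past the threshold, 54 did not and 0 changed direction. The number of the 10 genes called for KO against WT at day 2.5 was 1, and 0 without the low-count filter, 2 with DESeq2, 2 with the library-number block, 2 with only the groups compared and 0 to 1 with a library left out. At day 7.5 it was 1, 2 with only the groups compared and 0 to 1 with a library left out. For the change of the KO effect it was 0, and 1 (FN1) with DESeq2 and 1 with the block. HAse2.5 at day 7.5 gave 1, 2 with DESeq2, 2 with the line block, 0 with only the groups compared and 0 to 1 with a library left out. HAse1.5 against HAse2.5 at day 7.5 gave 0, and 1 (COL5A1) without the filter and 1 with DESeq2. The untreated step from day 4.5 to day 7.5 gave 4, and 2 with only the groups compared. The change of the HAse1.5 effect gave 1, 0 without the filter and 0 to 1 with a library left out, and KO minus HAse1.5 at day 2.5 gave 1, and 0 to 1 with a library left out. The cause was not tested.

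COL2A1 in KO at day 2.5 was −0.82 without the filter (edgeR adjusted p 0.0655) and −0.85 to −0.72 with a library left out, and at day 7.5 it was −1.56 to −1.34 with a library left out. COL5A1 under HAse2.5 at day 7.5 was 0.83 with only the groups compared (edgeR adjusted p 0.144) and 0.67 to 0.98 with a library left out. The change of the HAse1.5 effect on FN1 was 2.22 without the filter (edgeR adjusted p 0.0994) and 1.92 to 2.60 with a library left out. KO minus HAse1.5 for COL2A1 at day 2.5 was 2.24 to 2.81 with a library left out.

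With the replicate block, COL1A1 in KO at day 2.5 had an edgeR adjusted p of 0.0314 and the change of the KO effect on FN1 one of 0.0116. WT and KO libraries of a block share only library numbers (27 of 37 pairs correlated above 0.1, lowest −0.0721). Beside the blocked values already given, the block changed no other call of the 10 genes where it could be fitted. POSTN was not tested in the blocked fit of WT libraries, and the differences between arms were not fitted with a block. TMM scaling moved 1 of 160 group levels by 1 SD or more. Libraries held 831062 counts or more, which limits COL3A1 before day 4.5 and POSTN before day 7.5.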

Other observations

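The log2 ratio of COL1A1 to COL1A2 CPM (pseudocount 0.5), which was examined after the values of both chains had been seen, had WT group means of −1.73, −0.25, 1.58 and 2.00 at days 1.5, 2.5, 4.5 and 7.5, a course that was not tested. At day 2.5 it was −2.59 to −1.73 in the 6 KO libraries (mean −2.07 ± 0.34, SD) and −1.47 to 1.05 in the 6 WT libraries (mean −0.25 ± 0.99, SD), without overlap. The difference was −1.82, and −2.07 to −1.56 with a library left out. It is a description with no test, because the ratio was chosen on the opposite differences of the chains in these libraries. In the other comparisons the difference was 0.20 for KO at day 1.5, −1.23 for HAse1.5 at day 2.5 and −0.50 for HAse1.5 at day 7.5, each with overlapping groups, and −0.89 for KO and −1.01 for HAse2.5 at day 7.5, both without overlap. With 3 libraries per group at day 7.5, an exact test of such a separation cannot give a p below 0.1, so neither passes the threshold. The ratio of COL5A1 to COL5A2 overlapped between groups in all 6 comparisons.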
